A study of Mus musculus with 4 samples.

Results

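The genes described here encode collagens, proteoglycans and linking proteins of the basement membrane of blood vessels. They are the type IV collagen chain genes Col4a1, Col4a2 and Col4a5, the collagen genes Col15a1 and Col18a1, the nidogen genes Nid1 and Nid2, the perlecan gene Hspg2 and Sparc. These 9 genes were taken by name from the 55367 gene names of the deposited count table. RNA was read from endothelial cells of subcutaneous tumours grown from KPC cells, a mouse pancreatic cancer line, in C57BL/6 mice. The cells were sorted as positive for CD31, an endothelial surface protein, and negative for CD45, a leukocyte surface protein. The mice had received either an antibody against CD93, a receptor on endothelial cells, or control Rat IgG by the intraperitoneal route 48 hours before the cells were taken, and each group had 2 libraries. The labels give no age, no sex and no number of mice per library, so each p-value reflects the variation among the libraries alone, which may be technical.

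A basement membrane is a thin sheet of matrix on which endothelial cells sit. Type IV collagen forms a cross-linked network in it, laminin forms a separate network, and nidogens and perlecan bind both. Growing tumour vessels lay down this sheet as they sprout, and tumour endothelium is known for high transcript levels of Col4a1 and Col4a2.

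The libraries held 17813993 and 13808077 reads assigned to genes with anti-CD93, against 12264231 and 9364294 with control IgG. All 9 genes passed the filter on low counts, which left 16945 genes for testing. Levels are given in CPM (reads per 1000000 reads of the tested genes, scaled by TMM), and levels of different genes are compared only in CPM per kilobase of exon. Control IgG replicate 2 stood apart from the other 3 libraries. Reads fell on 27718 genes in it, against 23796 to 25430 genes in the others, and mitochondrial ribosomal RNA took 62037 CPM of all its assigned reads, against 109728 to 117754 CPM. For the 9 genes, results that rest on it are therefore given with and without it. The marker lists and some of the other genes are given with all 4 libraries only. The summed level of 10 endothelial markers, such as Pecam1 and Cdh5, was 8865 and 9072 CPM with anti-CD93, against 8973 and 10969 CPM with control IgG, and none of them was at 0. The log2 fold change was below 0 for 9 of these 10 and its median was -0.15, with both anti-CD93 libraries below both controls for 6 and 0 past the test. Over all tested genes the share with both anti-CD93 libraries below both controls was 19.7%. Cd93 itself averaged 1615 ± 143 CPM with anti-CD93 and 1644 ± 162 CPM with control IgG (SD, n = 2 each). Ptprc, which encodes CD45, was at 2.32 to 5.08 CPM in the 4 libraries.

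The start regions of 4 of the genes are shown for how they are arranged, and no value below was tested against these sequences. Col4a1 and Col4a2 are neighbours that are read in opposite directions and whose levels kept pace from library to library, Hspg2 had a like profile, and Sparc had another. Each window runs from 250 bases before to 50 bases after the RefSeq start site, on GRCm38.p6, and is written 5′ to 3′ on the strand of its gene. Capitals mark GGGCGG, the core of a GC box, and CCAAT, each on either strand (CCGCCC and ATTGG). The windows lie at chr8:11312777-11313076 (minus strand) for Col4a1, chr8:11312555-11312854 (plus strand) for Col4a2, chr4:137468553-137468852 (plus strand) for Hspg2 and chr11:55420031-55420330 (minus strand) for Sparc.
Col4a1: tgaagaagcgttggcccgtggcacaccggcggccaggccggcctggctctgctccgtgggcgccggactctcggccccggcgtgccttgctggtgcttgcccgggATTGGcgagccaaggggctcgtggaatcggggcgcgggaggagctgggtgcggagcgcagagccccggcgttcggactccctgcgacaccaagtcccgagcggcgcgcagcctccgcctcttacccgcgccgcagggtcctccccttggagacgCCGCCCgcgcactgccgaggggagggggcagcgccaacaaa
Col4a2: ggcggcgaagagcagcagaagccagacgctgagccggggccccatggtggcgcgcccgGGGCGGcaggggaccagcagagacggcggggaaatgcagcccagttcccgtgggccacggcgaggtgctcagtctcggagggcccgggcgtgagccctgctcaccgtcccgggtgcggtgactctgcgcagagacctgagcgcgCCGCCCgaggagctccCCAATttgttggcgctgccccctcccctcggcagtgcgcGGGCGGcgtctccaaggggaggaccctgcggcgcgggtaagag
Hspg2: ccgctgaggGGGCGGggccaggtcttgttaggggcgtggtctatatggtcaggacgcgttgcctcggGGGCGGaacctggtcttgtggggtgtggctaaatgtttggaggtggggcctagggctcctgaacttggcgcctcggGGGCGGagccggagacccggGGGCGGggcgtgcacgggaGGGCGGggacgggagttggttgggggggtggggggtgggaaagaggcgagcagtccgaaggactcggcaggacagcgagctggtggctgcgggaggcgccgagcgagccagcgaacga
Sparc: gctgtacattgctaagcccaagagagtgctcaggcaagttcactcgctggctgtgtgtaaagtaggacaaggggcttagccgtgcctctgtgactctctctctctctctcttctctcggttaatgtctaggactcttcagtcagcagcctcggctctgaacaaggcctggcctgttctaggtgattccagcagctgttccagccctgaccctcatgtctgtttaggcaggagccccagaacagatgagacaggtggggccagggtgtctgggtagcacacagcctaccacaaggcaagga

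The Col4a1 and Col4a2 windows share 78 bases, read on opposite strands, and the annotated starts lie so that the first exons of both genes overlap by 22 bases. The shared stretch holds 1 GGGCGG and no CCAAT. The Hspg2 window holds 5 matches to GGGCGG, all on the strand of the gene, and the Sparc window holds no match to either motif. RefSeq windows were found for 8 of the 9 genes (9 windows, since Col18a1 has 2), and not for Nid2. Of these 9 windows 6 held a GGGCGG, 5 held a CCAAT and 0 held a TATAAA on either strand, counting overlapping matches. Among all 32851 RefSeq windows of 300 bases, 35.7% held a GGGCGG, 37.4% a CCAAT and 13.6% a TATAAA. Of the windows not printed, those of Nid1 and Col4a5 each held GGGCGG and CCAAT. The window of Col15a1, a gene that like Col4a1 was highest in control IgG replicate 2, held neither. For Col18a1, 1 window held GGGCGG and CCAAT and the other held neither. A match describes the letters of the window only. The RefSeq start of Sparc used here lies inside the span that the deposited table gives for that gene.

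Type IV collagen transcripts were among the most abundant in these sorted samples. Col4a1 stood between place 5 and place 7 and Col4a2 between place 8 and place 11 of the 16945 tested genes in CPM per kilobase, mitochondrial genes included. Sparc, whose product is a matrix protein that binds collagens, held place 11 to place 15. In CPM per kilobase, over all 4 libraries, Col4a1 averaged 1959, Col4a2 1399, Sparc 1179, Hspg2 320.4, Col18a1 259, Col15a1 191, Nid1 169.7, Nid2 124 and Col4a5 0.489. The order of the first 5 genes was the same in each library. Sparc and Col4a2 lay close in control IgG replicate 1, at 1257 and 1259 CPM per kilobase. Nid1 stood above Col15a1 in both anti-CD93 libraries and in control IgG replicate 1, and below it in control IgG replicate 2, so the order of these neighbours did not hold beyond their spread.

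**Figure D1:**
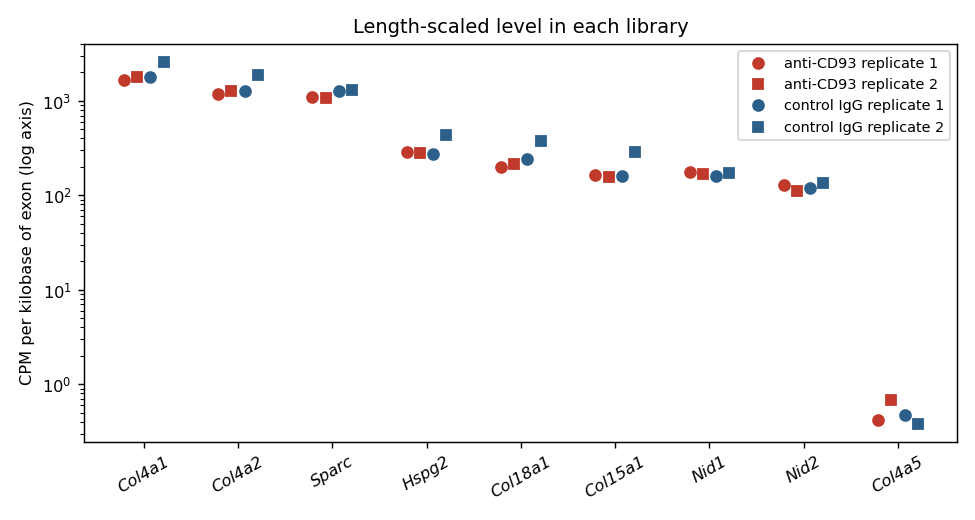
Level of each gene in CPM per kilobase of exon (log axis), 1 point per library, anti-CD93 in red and control IgG in blue, genes ordered by their mean. Col4a1, Col4a2 and Sparc lie at 1069 CPM per kilobase or more in all 4 libraries and Col4a5 lies below 1.

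No gene of the 9 passed the test between anti-CD93 and control IgG, by edgeR's quasi-likelihood test with Benjamini-Hochberg adjustment over 16945 genes, and 0 genes (0%) passed in all. The adjusted p was 0.812 for Col4a1, Col4a2, Col15a1, Col18a1, Hspg2 and Sparc, 0.864 for Col4a5, 0.945 for Nid1 and 0.925 for Nid2. At an unadjusted p under 0.05 the test gave 761 genes, or 4.49% of those tested, 2.50% lower and 1.99% higher with anti-CD93, and among them was 1 of the 9, Col18a1, which was lower. Over all genes DESeq2 called 4 and limma-voom 0, none of them of the 9. The log2 fold change, anti-CD93 against control IgG, was below 0 for 7 of the 9 genes and above 0 for 2, with a median of -0.31, where the median over all tested genes was -0.0092. Both anti-CD93 libraries lay below both control libraries for 3 of the 9, Col4a2, Col18a1 and Sparc, and above them for 0. Over all tested genes the groups did not overlap in 39.8%, with 19.7% lower and 20.1% higher with anti-CD93. Whether 3 in 9, all lower, differs from the 19.7% was not tested. In these sorted bulk samples fewer cells of a type and less RNA per cell cannot be told apart.

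**Figure D2:**
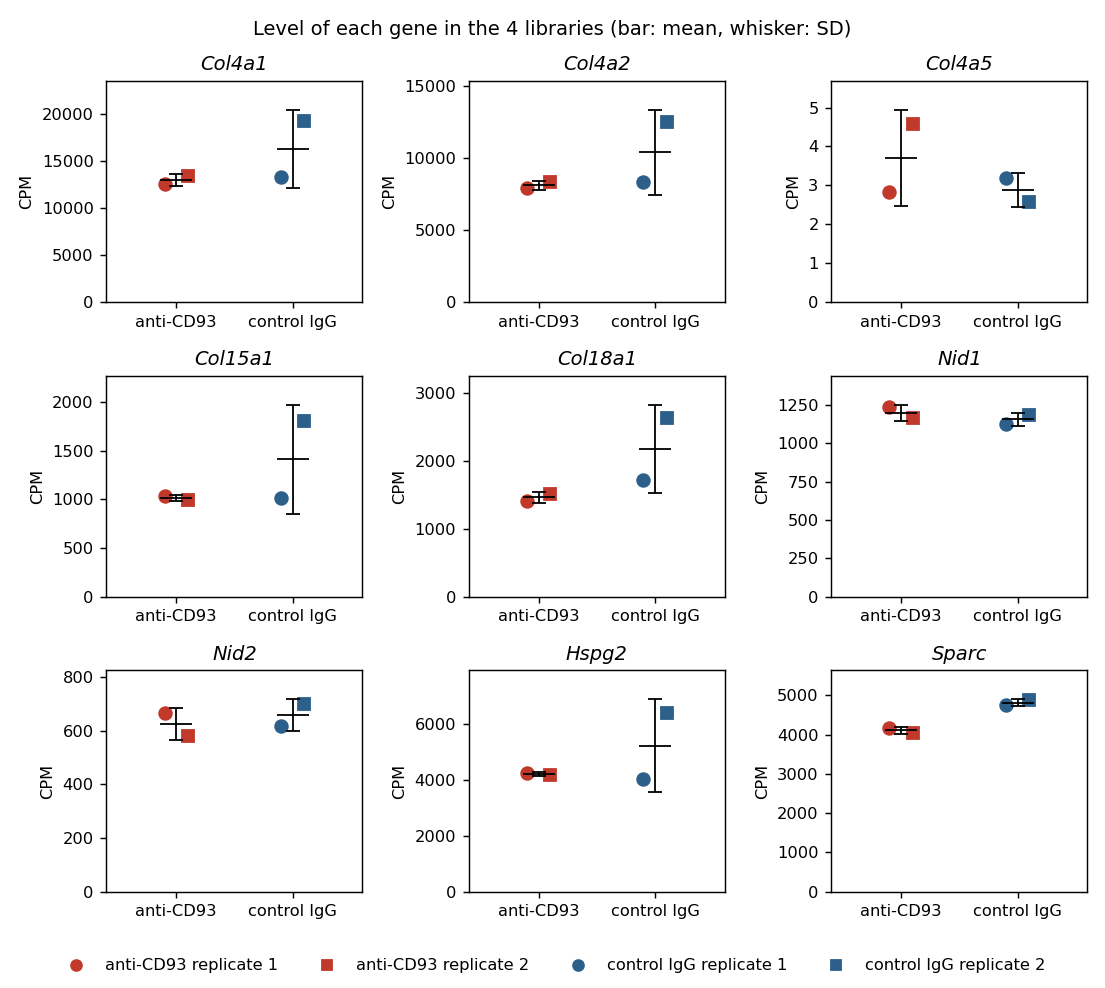
CPM of each gene in the 4 libraries, anti-CD93 left (red) and control IgG right (blue), circles for replicate 1 and squares for replicate 2, with the group mean (bar) and SD (whisker), all axes from 0. For Col4a1, Col4a2, Col15a1, Col18a1 and Hspg2 control IgG replicate 2 stands above the other 3 libraries, while Sparc has both control libraries above both anti-CD93 libraries.

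Col4a1 (chromosome 8, 11198423 to 11312826, GRCm38) and Col4a2 (chromosome 8, 11312805 to 11449287) encode the type IV collagen chains of nearly all basement membranes, which join in 1 triple helix. Col4a1 was at 12542 and 13406 CPM with anti-CD93, against 13319 and 19228 CPM with control IgG. The group means were 12974 ± 611 CPM with anti-CD93 and 16273 ± 4179 CPM with control IgG (SD, n = 2 each), and the groups overlapped. Its log2 fold change was -0.33 (SE 0.22), with a 95% interval in fold of 0.564 to 1.13.

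Col4a2 was at 7900 and 8329 CPM with anti-CD93, against 8332 and 12490 CPM with control IgG. These groups did not overlap, but anti-CD93 replicate 2 and control IgG replicate 1 were nearly level. The log2 fold change of Col4a2 was -0.36 (SE 0.22), with a 95% interval in fold of 0.546 to 1.11. In both genes control IgG replicate 2 was the high library.

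Within each library both chains kept nearly the same proportion. The ratio of Col4a1 to Col4a2 in CPM per kilobase was 1.41 and 1.43 with anti-CD93, against 1.42 and 1.37 with control IgG. The difference of its log2 value between the groups was 0.027, against an SD within groups of 0.029 (exact permutation test over libraries, two-sided p = 0.667; 2 against 2 libraries cannot go below 0.333). The 22 bases that both genes share are 0.295% of the Col4a1 exons and 0.332% of the Col4a2 exons, and since counting ignored strand, reads on them cannot be told apart.

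Col4a5 (chromosome X, 141475385 to 141689234) encodes a type IV collagen chain of more specialised basement membranes, such as that of the kidney glomerulus. It was at 2.82 and 4.58 CPM with anti-CD93, against 3.18 and 2.57 CPM with control IgG, from 50, 63, 39 and 24 reads. The groups overlapped, and with so few reads its log2 fold change of 0.35 had an SE of 0.45 and a 95% interval in fold of 0.625 to 2.61. Without anti-CD93 replicate 2 it was -0.029, below 0, and without anti-CD93 replicate 1 it was 0.67. Of the other type IV collagen chain genes, Col4a3, Col4a4 and Col4a6 did not pass the count filter.

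Col15a1 and Col18a1 encode collagens of a family that carries sugar side chains and lies at basement membranes, and the end of the Col18a1 protein is cut off as endostatin, an inhibitor of vessel growth. Col15a1 (chromosome 4, 47208161 to 47313167) was at 1034 and 991 CPM with anti-CD93, against 1012 and 1808 CPM with control IgG. The first 3 of these libraries were nearly level, and control IgG replicate 2 alone was high. The log2 fold change was -0.48 (SE 0.26), with a 95% interval in fold of 0.470 to 1.10.

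Col18a1 (chromosome 10, 77052178 to 77166548) was at 1408 and 1517 CPM with anti-CD93, against 1709 and 2632 CPM with control IgG. The groups did not overlap, and control IgG replicate 2 was again the highest library. Its log2 fold change of -0.57 (SE 0.23) was the lowest of the 9, with an unadjusted p = 0.0365 by edgeR and a 95% interval in fold, before adjustment, of 0.469 to 0.969. The ratio of Col18a1 to Col15a1 in CPM per kilobase was 1.23 and 1.38 with anti-CD93, against 1.53 and 1.32 with control IgG, and these ranges overlapped.

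Hspg2 (chromosome 4, 137468769 to 137570630) encodes perlecan, the large heparan sulfate proteoglycan that binds growth factors in the basement membrane. It was at 4261 and 4167 CPM with anti-CD93, against 4050 and 6408 CPM with control IgG. Control IgG replicate 1 was the lowest library and control IgG replicate 2 the highest, and the log2 fold change was -0.31 (SE 0.23), with a 95% interval in fold of 0.554 to 1.17. The ratio of Hspg2 to Col4a1 in CPM per kilobase ran from 0.157 to 0.172 with anti-CD93 and from 0.154 to 0.169 with control IgG.

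The nidogens, glycoproteins that link the laminin and collagen networks, showed little spread between libraries. Nid1 (chromosome 13, 13437551 to 13512269) was at 1237 and 1163 CPM with anti-CD93, against 1125 and 1186 CPM with control IgG. Nid2 (chromosome 14, 19751265 to 19811787) was at 666 and 581 CPM with anti-CD93, against 617 and 700.02 CPM with control IgG. In both genes the groups overlapped, and the log2 fold changes were 0.055 (SE 0.16) and -0.079 (SE 0.17), with 95% intervals in fold of 0.800 to 1.35 for Nid1 and 0.717 to 1.25 for Nid2. Of the Nid2 exon bases 8.45% lie under exons of Rtraf on the other strand, and counting ignored strand, so reads there cannot be told apart.

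Sparc (chromosome 11, 55394500 to 55423183) was at 4177 and 4051 CPM with anti-CD93, against 4761 and 4880 CPM with control IgG. The groups did not overlap and each was tight, at 4114 ± 89.3 CPM with anti-CD93 and 4821 ± 84.0 CPM with control IgG (SD, n = 2 each). Unlike the collagens and Hspg2, its control libraries lay close to each other. The log2 fold change was -0.23 (SE 0.17), with a 95% interval in fold of 0.655 to 1.11. It ran from -0.21 to -0.25 when each library was left out in turn, and in none of these fits did it pass the test (adjusted p = 0.0663 to 1 by edgeR). The ratio of Sparc to Col4a1 in CPM per kilobase was 0.656 and 0.595 with anti-CD93, against 0.704 and 0.5001 with control IgG, so the control libraries held both the highest and the lowest value.

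**Figure D3:**
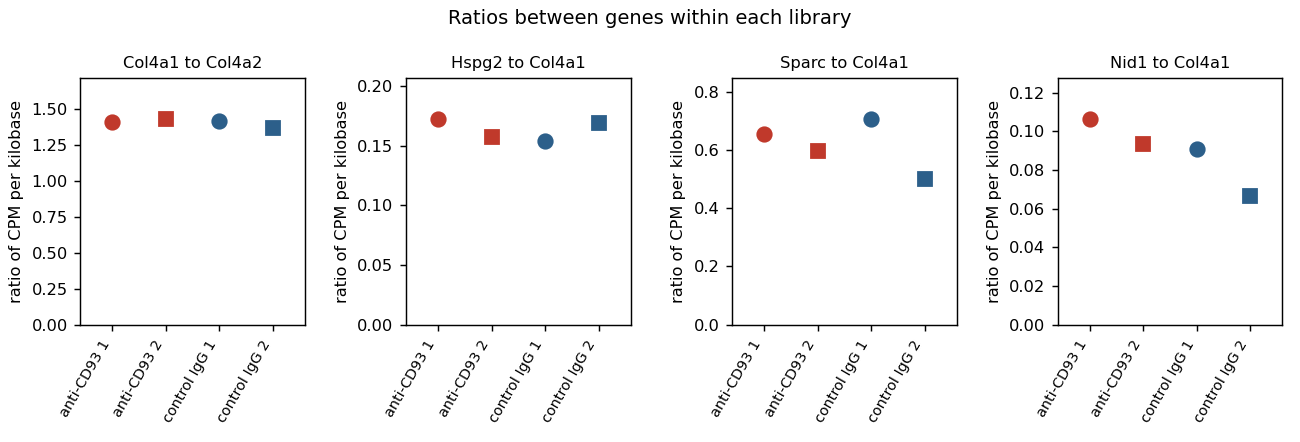
Ratio of CPM per kilobase between pairs of genes in each library, anti-CD93 (red) left of control IgG (blue), each axis from 0. Col4a1 to Col4a2 stays between 1.37 and 1.43, while Nid1 to Col4a1 is at 0.106 and 0.0933 with anti-CD93 and at 0.0908 and 0.0663 with control IgG.

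The size of the difference for Col4a1, Col4a2, Col15a1, Col18a1 and Hspg2 rested on control IgG replicate 2. In the fit that left it out, log2 fold changes were -0.039 for Col4a1, -0.039 for Col4a2, -0.00045 for Col15a1, -0.23 for Col18a1 and 0.056 for Hspg2, and the median of the 9 was -0.00045, with 4 genes above and 5 below 0. Nid1, Nid2, Sparc and Col4a5 were then at 0.092, 0.013, -0.21 and 0.20. None of the 9 passed in that fit, which called 13 of 16945 genes (0.0767%), 0.0590% higher and 0.0177% lower with anti-CD93. It had a single control library, which is assumed to vary like the anti-CD93 libraries.

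When control IgG replicate 1 was left out instead, 5 of the 9 genes passed, all lower with anti-CD93. Their log2 fold changes were -0.57 for Col4a1 (adjusted p = 0.00165 by edgeR), -0.62 for Col4a2 (0.00105), -0.84 for Col15a1 (3.53e-04), -0.85 for Col18a1 (3.56e-04) and -0.60 for Hspg2 (0.00117). That fit called 4549 of 16945 genes (26.8%), with 14.1% higher and 12.8% lower with anti-CD93, and it sets the anti-CD93 libraries against control IgG replicate 2 alone. The 9 genes together were at 33228 and 34209 CPM with anti-CD93, against 34928 and 49336 CPM with control IgG, and the first 3 of these sums lie close together.

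**Figure D4:**
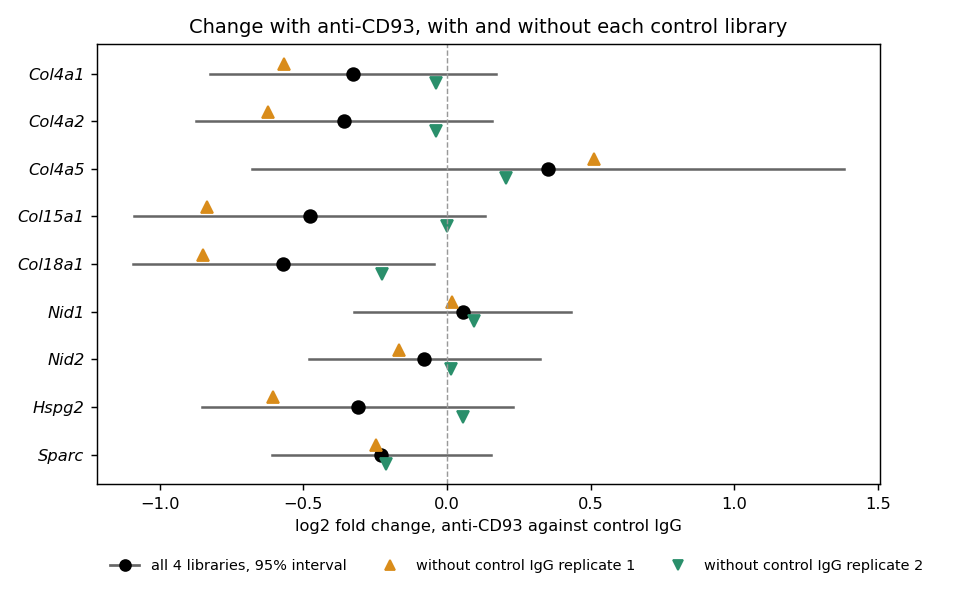
Log2 fold change of each gene, anti-CD93 against control IgG, with all 4 libraries (black, with the 95% interval), without control IgG replicate 1 (orange) and without control IgG replicate 2 (green). For Col4a1, Col4a2, Col15a1 and Hspg2 the green points lie between -0.039 and 0.056, and for Sparc all 3 points lie between -0.25 and -0.21.

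The genes that were high in control IgG replicate 2 are also those with the most G and C in their transcripts. The GC content of the longest transcript was 56.4% for Col15a1, 57.7% for Col4a1, 60.6% for Col4a2, 60.8% for Col18a1 and 60.9% for Hspg2. In log2 CPM these genes lay 0.42 to 0.63 above their own mean over the libraries in control IgG replicate 2. Nid1 (50.4%), Col4a5 (51.5%), Sparc (52.5%) and Nid2 (54.5%) lay between -0.30 and 0.13 from theirs. The trend of all tested genes with GC content and gene length in that library came to 0.34 at the values of Col4a1, 0.42 at those of Col4a2, 0.31 at those of Col15a1, 0.42 at those of Col18a1 and 0.37 at those of Hspg2. For the other genes it was also above 0, at 0.078 for Nid1, 0.13 for Col4a5, 0.18 for Sparc and 0.26 for Nid2. Their own deviations there were 0.011, -0.30, 0.13 and 0.13. With each library's trend removed, an alternative added once the values were known, the log2 fold changes were -0.070 for Col4a1, -0.044 for Col4a2, -0.22 for Col15a1, -0.25 for Col18a1, -0.026 for Hspg2 and -0.099 for Sparc. Those of Nid1, Nid2 and Col4a5 were then 0.10, 0.10 and 0.42.

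**Figure D5:**
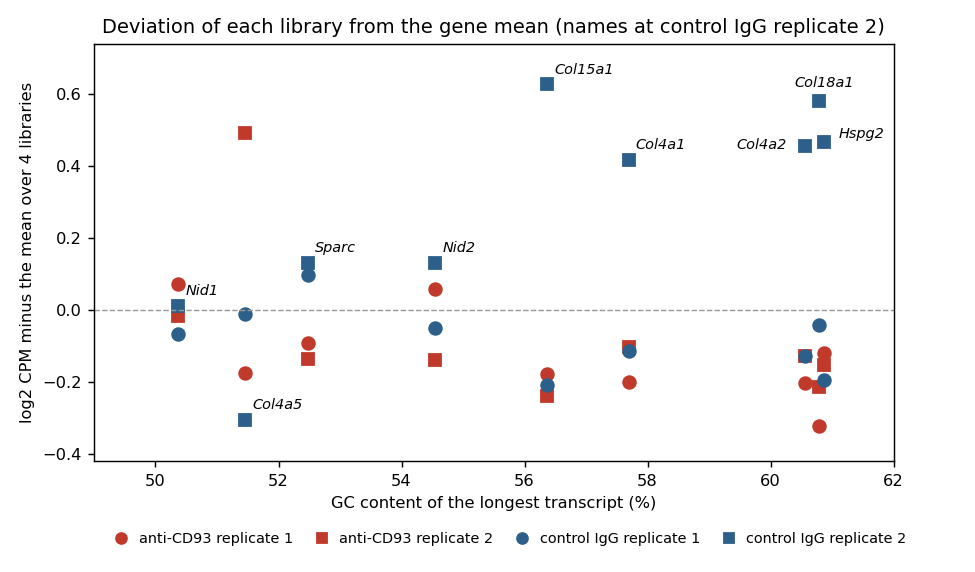
Log2 CPM of each gene in each library minus its mean over the 4 libraries (y axis), against the GC content of its longest transcript in percent (x axis), with gene names beside the points of control IgG replicate 2. The 5 genes from 56.4% upward lie at 0.42 to 0.63 in that library and below 0 in the other 3.

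The genes whose profile over the 4 libraries was nearest to that of Col4a1, among 3789 other genes with a mean of at least 50 CPM, were Unc45a, Ciz1 and Ppp6r1. Their distances, taken over the log2 CPM values of the 4 libraries after each gene's mean was subtracted, were 0.018, 0.021 and 0.026. Col4a2 lay at 0.049 and Hspg2 at 0.13 from Col4a1, and Sparc at 0.37 and Nid1 at 0.50. The likeness rests on 4 libraries, of which 1 stands apart.

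Other genes of the basement membrane were looked at as lists, each described by counts beside the 0% called over all genes. Of 18 other basement membrane components 12 were tested and 0 passed, with 3 higher and 9 lower and a median log2 change of -0.20. With each library left out in turn, its lowest median was -0.51, when anti-CD93 replicate 2 was missing, and its highest was -0.044, when control IgG replicate 2 was missing. The fibulin genes Fbln2 and Fbln1 had the smallest p of this list. Fbln2 was at 279 and 296 CPM with anti-CD93, against 329 and 500.5 CPM with control IgG, and Fbln1 at 8.93 and 9.66 CPM against 11.1 and 17.1 CPM. Both had control IgG replicate 2 as the high library, and without it the log2 fold change was -0.19 in place of -0.53 for Fbln2 and -0.26 in place of -0.60 for Fbln1.

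The enzymes and chaperones that fold and cross-link type IV collagen numbered 17, all tested, with 0 past the test, 7 higher and 10 lower. Their median log2 change was -0.091, and with each library left out it ran from -0.26 without control IgG replicate 1 to 0.073 without control IgG replicate 2, where 10 were higher and 7 lower. Plod2, which encodes a lysyl hydroxylase, was at 38.1 and 49.5 CPM with anti-CD93, against 29.9 and 16.6 CPM with control IgG. P4ha2, which encodes a subunit of the collagen prolyl hydroxylase, was at 51.9 and 58.9 CPM with anti-CD93, against 42.5 and 38.5 CPM with control IgG. In both genes the groups did not overlap, with log2 fold changes of 0.90 (SE 0.30) and 0.45 (SE 0.19) and an adjusted p = 0.812 each by edgeR. Without control IgG replicate 2 the log2 fold change of Plod2 was 0.54.

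Of 14 receptors for basement membrane proteins, all tested, 0 passed, with 10 higher and 4 lower, and the median log2 change was 0.25. With each library left out the median ran from 0.10 without control IgG replicate 2, where 14 of 14 were higher, to 0.41 without control IgG replicate 1, where 9 were higher and 5 lower. Sdc4, which encodes the cell surface proteoglycan syndecan-4, was at 107 and 98.2 CPM with anti-CD93, against 66.6 and 63.5 CPM with control IgG. Its groups did not overlap, and the log2 fold change of 0.66 (SE 0.17; unadjusted p = 0.0055 and adjusted p = 0.812 by edgeR) was 0.62 without control IgG replicate 2. Itgav, which encodes the alpha v integrin subunit, was at 214 and 228 CPM with anti-CD93, against 203 and 120 CPM with control IgG, and its log2 fold change of 0.45 was 0.12 without control IgG replicate 2.

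Of 10 proteases that cut basement membrane proteins, all tested, 0 passed, with 4 higher and 6 lower and a median log2 change of -0.15, which was lowest, at -0.16, when anti-CD93 replicate 2 was left out and highest, at -0.022, when control IgG replicate 2 was. Bmp1, which encodes a protease that trims procollagens, was at 145 and 179 CPM with anti-CD93, against 205 and 251 CPM with control IgG. Ctss, which encodes cathepsin S, was at 14.4 and 14.8 CPM with anti-CD93, against 7.18 and 11.5 CPM with control IgG. Neither gene's groups overlapped, and the adjusted p was 0.812 for each by edgeR. Without control IgG replicate 2 the log2 fold change of Ctss was 1.02 in place of 0.66.

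Laminin chains and fibrillar collagens, the nearest matrix families, also held no gene past the test. Of 11 laminin chain genes 10 were tested, with 5 higher, 5 lower and a median log2 change of 0.017. With each library left out this median ran from -0.031 without control IgG replicate 1 to 0.12 without control IgG replicate 2, where 6 were higher and 4 lower. The most abundant, Lamc1, was at 1764 and 1626 CPM with anti-CD93, against 1748 and 1932 CPM with control IgG. Of 9 fibrillar collagen genes 8 were tested, with 1 higher, 7 lower and a median of -0.25. This median was -0.43 when anti-CD93 replicate 2 was left out, -0.071 when anti-CD93 replicate 1 was, where 4 were higher and 4 lower, and -0.10 when control IgG replicate 2 was. The most abundant of them, Col1a1, was at 819 and 982 CPM with anti-CD93, against 953 and 1245 CPM with control IgG. Whether the 9 genes differ from these families was not tested.

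Pericytes, fibroblasts and tumour cells also make type IV collagen and Sparc, so the markers of other cells were summed beside the 9 genes. The 11 pericyte and smooth muscle markers summed to 1051 and 870 CPM with anti-CD93, against 1007 and 876 CPM with control IgG, with 4 higher, 7 lower and a median log2 change of -0.29. The 10 fibroblast markers, 2 of them fibrillar collagens, summed to 1374 and 1656 CPM with anti-CD93, against 1647 and 2232 CPM with control IgG, with 4 higher, 6 lower and a median of -0.20. The 9 tumour epithelial markers summed to 2440 and 2048 CPM with anti-CD93, against 1743 and 2528 CPM with control IgG, with 6 higher, 3 lower and a median of 0.054. Of these, 2 had an unadjusted p under 0.05 by edgeR, Epcam and Cdh1, which are named here after their values were seen. Epcam, which encodes an epithelial surface protein, was at 34.1 and 41.1 CPM with anti-CD93, against 21.7 and 23.4 CPM with control IgG. Cdh1, which encodes E-cadherin, was at 351 and 290 CPM with anti-CD93, against 216 and 210 CPM with control IgG. Neither gene's groups overlapped, and the adjusted p was 0.812 for both by edgeR. An unadjusted p under 0.05 by edgeR was also found for 1 endothelial marker, Egfl7, 1 pericyte marker, Kcnj8, and 1 fibroblast marker, Pi16. All were lower with anti-CD93, with log2 fold changes of -0.50, -0.52 and -1.84 and an adjusted p = 0.812 each by edgeR. Pi16 rests on 16 to 66 reads. Over all tested genes 4.49% had such an unadjusted p. The 8 leukocyte markers reached 30.2 and 25.1 CPM with anti-CD93, against 16.6 and 31.8 CPM with control IgG, with S100a8 at 0 in anti-CD93 replicate 1 and Cd3e at 0 in control IgG replicate 1. Of 5 erythroid markers tested 0 passed, 4 were higher and 1 was lower, and the median was 0.48 on the log2 scale. Of these, 2 had both anti-CD93 libraries above both controls and an unadjusted p under 0.05 by edgeR, and their adjusted p was 0.812. Among all tested genes 20.1% had both anti-CD93 libraries above both controls, and 1.99% were higher with such a p. No marker of the pericyte, fibroblast and epithelial lists was at 0 in any library. In CPM per kilobase, over all 4 libraries, Krt8 of the epithelial list averaged 398 and Krt18 341, and its other markers 1.29 to 192. The endothelial markers averaged 25.7 to 645, with Pecam1, which encodes CD31, at 276. The part of cells other than endothelial cells in the levels of the 9 genes was not tested.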

How the data were processed

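Raw read counts per gene name were deposited; they were made with featureCounts 2.0.1 and GENCODE vM25 (GRCm38), per the file headers. Libraries were made with a stranded kit and read as 150-base pairs, per the labels, but the recorded command sets neither pairing nor strand, so mates were counted singly and antisense reads were not separated. The submitters' processing notes also name STAR 2.7.5b and DESeq2 1.28.1. The deposited table called normalized is identical to the raw one (0 of 221468 cells differed) and was not used further.

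The genes, lists and tests were chosen with earlier results of these data known. The filter was filterByExpr (minimum count 10; 16945 genes left). Counts were scaled by TMM and tested in edgeR 4.0.16 (R 4.3.3) by quasi-likelihood with robust dispersion, without covariates, at a Benjamini-Hochberg adjusted p under 0.05. The SE is the log2 fold change divided by the root of F. 95% intervals use the moderated degrees of freedom and are not adjusted. The steps were tested on simulated data. Depth runs from 9364294 to 17813993 reads, and 2 libraries per group limit the precision. Genes outside the 9 that were named by rule were Cd93, Pecam1 and Ptprc, the 2 with the smallest p of each of 4 related lists, the most abundant laminin and fibrillar collagen gene, and the 3 nearest in profile to Col4a1. Epcam, Cdh1, Krt8, Krt18, Egfl7, Kcnj8 and Pi16 were named after their values were seen. Cdh5 was named as an example, S100a8 and Cd3e for being at 0, and Rtraf for its overlap with Nid2. Col4a3, Col4a4 and Col4a6 were named as type IV collagen genes below the filter. The erythroid marker list is given for its tested genes only. GC content came from the longest GENCODE vM21 transcript of each gene name (98.1% of tested genes). Alternatives were RLE or library-total scaling, no filter or a minimum count of 50, DESeq2 1.42.0, limma-voom (limma 3.58.1), a replicate block and each library left out. Removal of GC and length trends and halved counts were added after the data were seen, as were all alternatives for genes and lists outside the 9.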

Additional observations from a re-analysis of the deposited data

How the results depend on the processing

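Across 13 alternatives, the log2 fold changes of the 9 genes kept their direction and their side of the threshold in 106 of 116 values, passed the test in 5 (all without control IgG replicate 1) and changed sign in 5. The count of genes past the test, 0 with all 4 libraries by edgeR, was 48 with no count filter, 4 by DESeq2 and 14 with the replicate number as a block, and ran from 0 to 4549 with each library left out. The median over the 9 genes, -0.31, ran from -0.57 to -0.00045 with each library left out and was -0.044 with the GC and length trend removed; the cause of these moves was not tested. Deviations of same-numbered libraries from their group means correlated at -0.016 across genes. With 2 libraries per group the crossed numbers must give the same value with the other sign, 0.016. This value therefore cannot decide whether same-numbered libraries were paired. The replicate block changed no call among the 9, with a median of -0.27. With each library left out, Col4a5 ran from -0.029 to 0.67, Nid2 from -0.17 to 0.015, Hspg2 from -0.60 to 0.056, Cd93 from -0.12 to 0.077 and Ptprc from -0.58 to 0.66. With the GC and length trend removed, Nid2 was at 0.10 and Ptprc at -0.36, and with no count filter Cd93 was at 0.025. The log2 difference of the Col4a1 to Col4a2 ratio ran from 1.5e-05 to 0.054. A minimum count of 50 left no value for Col4a5, which rests on 24 to 63 reads.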
